A study of Mus musculus with 6 samples.

Results

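Zinc finger proteins of the C2H2 type are the largest group of DNA-binding regulators in mouse, and many of their genes are named Zfp with a number. The 288 genes described here are the protein-coding Zfp-number genes that reached 1 FPKM, a fragment count divided by transcript length and by the library's total, in at least 3 of 6 RNA sequencing libraries. They were taken from 374 genes with such a symbol in GENCODE M21, of which 9 were not protein-coding and 6 (Zfp36, Zfp42, Zfp57, Zfp281, Zfp365 and Zfp541) were set aside by name. Of the 359 genes left, 71 lay below the level filter. The members were thus chosen by their FPKM level, with earlier results of these data already known. The level filter can be met by 1 group alone, so it is not independent of the difference between groups. Counting at least 2 libraries of a group, 25 members reached 1 FPKM in the knockout only and 2 in the control only. The libraries came from mouse embryonic stem cells of the C57BL/6 strain, 3 from Rbbp4F/F cells, which serve as the control, and 3 from Rbbp4-/- cells, called the knockout. Rbbp4 encodes a histone-binding subunit of several chromatin complexes, among them NuRD, Sin3 and Polycomb repressive complex 2. The labels give no passage, clone or route of deletion. Nothing in them shows that replicates are separate cultures, and the p-values therefore reflect a spread between libraries that may be technical.

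A C2H2 finger is a short fold held together by a zinc ion between a pair of cysteines and a pair of histidines, and fingers in a row read DNA. Many Zfp proteins also carry a KRAB domain, which recruits the corepressor Trim28 (KAP1) and through it the H3K9 methyltransferase Setdb1, HP1 proteins and NuRD. In embryonic stem cells this system is known for silencing retroelements and for keeping imprints. KRAB zinc finger genes lie in tandem clusters of related copies, whereas other Zfp genes encode RNA-binding, ribosome-associated or chromatin proteins.

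The targeted gene separated the groups. Rbbp4 was at 58.5, 57.0 and 61.8 FPKM in the control libraries and at 21.3, 12.7 and 11.1 FPKM in the knockout libraries (log2 fold change -1.96 ± 0.22 SE, adjusted p = 3.94e-04 by limma), and antisense exons of other genes cover 18.1% of its exons. Depth, estimated from the steps between low values, was 25400000 to 28900000 fragments a library, so that a single fragment adds 0.02 to 0.0226 FPKM to a 2 kb transcript. All 8 embryonic stem cell markers were expressed and all 8 were lower in the knockout, their summed level being 4688 to 4838 FPKM in control and 1367 to 2156 FPKM in knockout libraries. Of 8 trophoblast markers, 6 were higher (summed level 35.0 to 44.6 FPKM in control and 105 to 191 FPKM in knockout). Of 8 fibroblast markers, 7 were below the filter and Thy1 was lower, and of 4 tested primitive endoderm markers 2 were higher and 1 lower. None of these markers was at 0 in all libraries, and their part in the changes of the Zfp genes was not tested. Knockout replicate 1 stood apart from the other knockout libraries on the second principal component (36.0 against -7.0 and -24.2).

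As a group the Zfp genes were higher in the knockout. The limma test called 139 members higher and 24 lower, and 125 did not pass. Over all 13579 tested genes 36.7% were called higher and 22.5% lower, so 48.3% of members against 36.7% of genes rose and 8.33% against 22.5% fell. The median log2 fold change of the members was 0.44, against 0.17 over all tested genes. All knockout values exceeded all control values for 157 members (41.3% of all tested genes), the reverse held for 28 (25.5%), and for 103 the groups overlapped. By size, 36 of the 288 members were called higher with at least a 2-fold change of FPKM + 1. That share lies slightly below the 13.4% of all tested genes, so large rises were not more common among the members. Such a fall was called for 3 members, against 7.12% of all tested genes.

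These counts depend on how the libraries are scaled. With median-ratio scaling, which brings the median of all tested genes to 0.00, 107 members were higher and 32 lower, beside 28.6% and 29.2% of all tested genes. With upper-quartile scaling, where that median is -0.06, 93 were higher and 40 lower, beside 25.8% and 32.2% of all tested genes. Higher members thus made up 85.3% of the called members, 77.0% with median-ratio scaling, 69.9% with upper-quartile scaling and 91.1% with equal FPKM sums. All 93 members called higher with upper-quartile scaling were among the 139, and 93 higher and 16 lower members held their call under every scaling.

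The level filter lets in genes that are high in 1 group only, and these were counted apart. 261 members reached 1 FPKM in at least 2 libraries of each group, and of these 120 were higher and 24 lower. These shares were 46.0% and 9.2%, against 36.7% and 22.5% of all tested genes, which include genes high in 1 group only. With the filter set at 1 FPKM in all libraries of both groups, 119 of 242 members were higher and 24 lower. Beside these stood 36.7% and 23.0% of all genes tested under that filter. 25 reached it in the knockout only, of which 19 were higher, 0 lower and 6 not called. The filter itself favors higher knockout values in these 25, so their calls are not independent of it. 2 reached it in the control only (Zfp968 and Zfp786), and neither was called. Summed over the 288 members, the level was 2542, 2672 and 2667 FPKM in the control and 3174, 3136 and 3357 FPKM in the knockout libraries. The groups did not overlap in this sum, and the median member rose from between 3.53 and 3.89 FPKM to between 5.11 and 5.87 FPKM. In bulk RNA a larger share of cells with a transcript and more transcript per cell cannot be told apart.

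**Figure D1:**
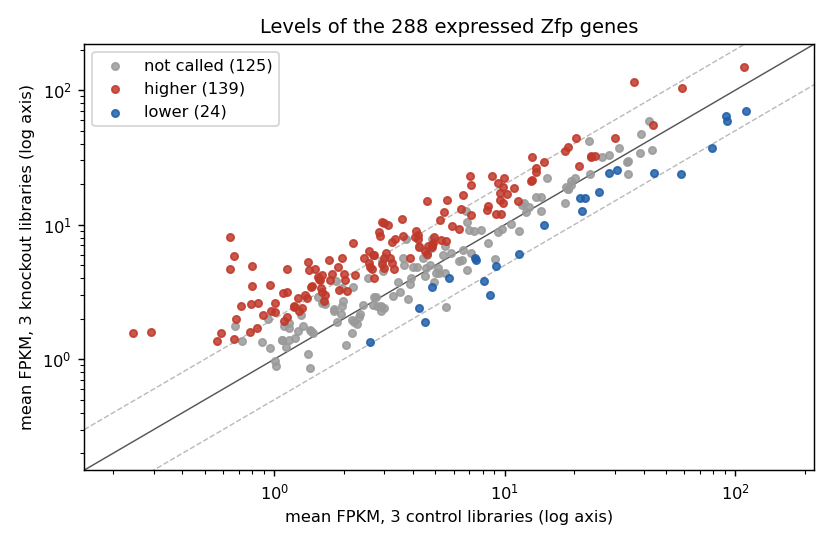
Mean FPKM of each of the 288 Zfp genes in the 3 control libraries (horizontal, log axis) and the 3 knockout libraries (vertical, log axis), colored by limma call; the solid line marks equal levels and the dashed lines a 2-fold difference. The 139 higher members (red) are spread over the whole range of levels, and 9 of the 24 lower members (blue) have a mean of at least 20 FPKM.

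Levels of single members spanned a wide range. Zfp207, a spindle protein that binds microtubules and the checkpoint protein Bub3, had the highest mean, with 112, 111 and 105 FPKM in control and 147, 148 and 153 FPKM in knockout libraries (log2 fold change 0.45 ± 0.07 SE, adjusted p = 1.15e-03 by limma). The groups did not overlap, but with upper-quartile scaling the change was 0.19 and no longer passed. Zfp978 and Zfp622 followed, and Zfp612, Zfp456 and Zfp786 were the lowest. Zfp612 was at 0.17, 0.45 and 0.11 FPKM in control and at 1.40, 1.53 and 1.75 FPKM in knockout libraries, so it entered through the knockout alone. Among the 37 members with a mean of at least 20 FPKM 14 were higher and 9 lower, whereas of the 103 members between 2 and 5 FPKM 52 were higher and 4 lower. Over all tested genes 34.7% were higher and 29.4% lower at 20 FPKM and above, and 35.1% were higher and 18.1% lower between 2 and 5 FPKM.

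The 4 largest log2 fold changes belonged to Zfp703, Zfp948, Zfp37 and Zfp949, which reached 1 FPKM in at least 2 libraries in the knockout only. They are members because they were high there, so their values are given as a description with no test. Zfp703, which encodes a transcriptional corepressor without a complete C2H2 finger pattern, was at 0.64, 0.55 and 0.73 FPKM in the control and at 6.78, 8.88 and 8.50 FPKM in the knockout libraries (log2 fold change 2.46), and antisense exons of Gm45371 cover 13.5% of the gene. Zfp948 was at 0.68, 0.57 and 0.76 FPKM in control and at 2.85, 6.01 and 8.68 FPKM in knockout libraries (log2 fold change 1.94). Zfp37 was at 0.80, 0.61 and 0.51 FPKM against 2.29, 4.83 and 6.82 FPKM (log2 fold change 1.70). In Zfp948 and Zfp37 knockout replicate 1 was the lowest of the knockout libraries. Zfp949 went the other way within the knockout group, with 6.73 FPKM in replicate 1 and 3.20 and 4.91 FPKM in the others, against 0.82, 0.58 and 1.00 FPKM in control libraries.

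Among the 261 members that reached 1 FPKM in both groups the largest rise was that of Zfp568. This KRAB zinc finger gene, known for repressing a placental transcript of Igf2, was at 34.6, 37.0 and 37.4 FPKM in control and at 126, 112 and 109 FPKM in knockout libraries (log2 fold change 1.64 ± 0.08 SE, adjusted p = 3.66e-05 by limma). The spread within each group was small beside the gap between them. Zfp655 was at 6.33, 6.79 and 8.0 FPKM against 20.3, 21.5 and 26.8 FPKM (log2 fold change 1.57 ± 0.14 SE). Zfp617 was at 2.82, 3.62 and 2.39 FPKM against 9.66, 11.2 and 10.6 FPKM (log2 fold change 1.55 ± 0.15 SE), and 41.5% of its 50-base stretches also occur in transcripts of other genes. Zfp426 was at 3.62, 3.71 and 6.41 FPKM against 16.8, 14.1 and 13.7 FPKM (log2 fold change 1.54 ± 0.21 SE). In these 3 genes no control library reached the lowest knockout library, which was also a condition of their choice.

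The largest fall was that of Zfp704. It was at 8.19, 10.2 and 7.44 FPKM in control and at 2.85, 2.80 and 3.37 FPKM in knockout libraries (log2 fold change -1.25 ± 0.15 SE, adjusted p = 5.07e-04 by limma), and antisense exons cover 16.6% of it. Zfp296, a stem cell factor that binds Klf4 and is known to improve reprogramming, was at 60.8, 65.5 and 47.3 FPKM against 25.1, 24.1 and 22.1 FPKM (log2 fold change -1.24 ± 0.13 SE, adjusted p = 3.42e-04 by limma). Zfp710 was at 78.7, 78.2 and 80.9 FPKM against 40.2, 36.2 and 35.5 FPKM (log2 fold change -1.07 ± 0.08 SE). These were the 3 members called lower with at least a 2-fold change, and none of them holds the KRAB pattern. Zfp41, Zfp575, Zfp740, Zfp395 and Zfp141 followed, with log2 fold changes from -0.93 to -0.77. Of these 5, Zfp740 was the most abundant, at 42.6, 43.6 and 46.5 FPKM against 24.5, 25.2 and 23.4 FPKM (log2 fold change -0.83 ± 0.08 SE, adjusted p = 2.07e-04 by limma). The groups did not overlap in any of these 8 genes, which was a condition of their choice and is no separate result.

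**Figure D2:**
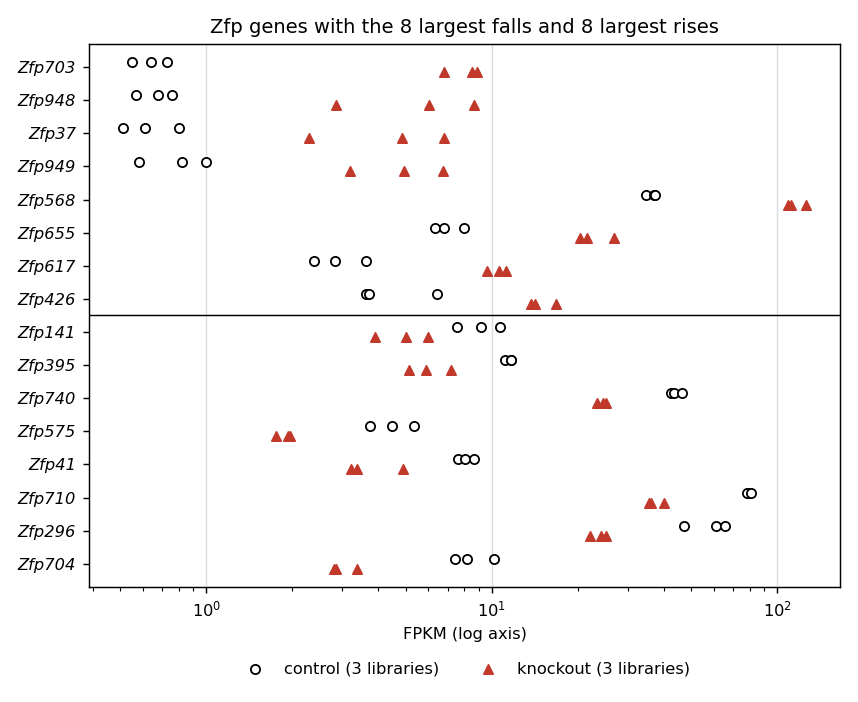
FPKM (log axis) of the 16 called Zfp genes with the largest rises (upper part) and falls (lower part) among those whose groups do not overlap, with 3 control libraries (open circles) and 3 knockout libraries (red triangles) per gene. Zfp703 went from at most 0.73 to at least 6.78 FPKM, and Zfp296 from at least 47.3 to at most 25.1 FPKM.

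Members with known roles outside DNA binding were described as a list of 11 RNA-binding, ribosome-associated and cytoplasmic proteins, of which 6 rose and 2 fell (54.5% and 18.2%, against 36.7% and 22.5% of all tested genes). Zfp622, a factor of large ribosomal subunit assembly, was at 61.0, 71.2 and 44.5 FPKM in control and at 99.8, 94.4 and 117 FPKM in knockout libraries (log2 fold change 0.83 ± 0.18 SE, adjusted p = 6.08e-03 by limma). Zfp830, a protein found with the spliceosome, was at 18.3, 17.9 and 18.4 FPKM against 32.5, 36.0 and 37.2 FPKM (log2 fold change 0.91 ± 0.09 SE). Zfp346, which binds double-stranded RNA, was at 18.5, 25.5 and 17.1 FPKM against 54.8, 39.9 and 37.2 FPKM (log2 fold change 1.08 ± 0.19 SE). In all 3 the groups were apart. Zfp638 was at 6.76, 5.54 and 9.14 FPKM against 10.6, 22.7 and 26.1 FPKM (log2 fold change 1.29 ± 0.33 SE), and its call was lost without control replicate 2 (1.14) or without knockout replicate 2 (1.15). Zfp326, a subunit of a complex that links elongation to splicing, was higher by 0.65 on the log2 scale, and its call was lost with upper-quartile scaling (0.41). Zfp106 and Zfp706 were lower, and Zfp598, the ubiquitin ligase that marks collided ribosomes, with Zfp593 and Zfp330 did not pass.

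Of 25 chromatin and transcription regulators on a second list, 22 were tested, 7 rose and 4 fell. These shares, 31.8% and 18.2%, lie near or below those of all tested genes (36.7% and 22.5%). Beside Zfp703, the epidermal factor Zfp750 was at 1.2, 1.3 and 1.7 FPKM in control and at 4.80, 5.29 and 5.64 FPKM in knockout libraries (log2 fold change 1.38 ± 0.14 SE, adjusted p = 2.67e-04 by limma). Zfp407 was at 2.55, 4.53 and 2.68 FPKM against 6.00, 8.15 and 8.29 FPKM (log2 fold change 1.01 ± 0.21 SE). Zfp644, a partner of the G9a and GLP methyltransferases, was at 2.93, 4.71 and 4.70 FPKM against 6.27, 9.29 and 11.2 FPKM (log2 fold change 0.95 ± 0.24 SE). All 3 had groups that did not overlap. Zfp592, Zfp335 and Zfp609 were also higher, and Zfp296, Zfp687, Zfp217 and Zfp516 were lower. The related proteins Zfp592 and Zfp687, which are found in one complex with Zmynd8, moved in opposite directions (log2 fold changes 0.64 and -0.51). Zfp503, the closest relative of Zfp703, stayed below the filter at 0.03 to 0.11 FPKM in control and 0.65 to 0.83 FPKM in knockout libraries.

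A further list held 5 KRAB zinc finger genes with known parts in silencing retroelements or keeping imprints, 4 of them tested. Zfp568 and Zfp809 rose. Zfp809, which silences proviruses that use the proline tRNA primer, was at 5.42, 6.54 and 7.40 FPKM in control and at 9.05, 13.4 and 16.7 FPKM in knockout libraries (log2 fold change 0.88 ± 0.22 SE, adjusted p = 1.19e-02 by limma). The groups did not overlap, and the lowest knockout value was again that of replicate 1. Zfp445, which acts at imprints, was at 4.10, 7.09 and 9.22 FPKM against 8.34, 15.5 and 14.2 FPKM and did not pass (limma adjusted p = 0.0548). Zfp932 was at 8.92, 6.03 and 12.1 FPKM against 7.62, 5.19 and 3.78 FPKM with overlapping groups, and Zfp708 was below the filter.

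The members were then sorted by what their longest coding sequences encode. The number of C2H2 finger patterns ranged from 0 to 36 with a median of 10, and 131 members held a KRAB pattern. Members with few fingers were called in shares close to those of all genes. Of 43 members with 0 to 4 fingers, 16 were higher and 10 lower (37.2% and 23.3%), against 36.7% and 22.5% of all tested genes, and their median log2 fold change was 0.15. Of 83 members with 5 to 9 fingers 45 were higher and 8 lower, of 109 with 10 to 14 fingers 54 and 5, and of 53 with 15 or more fingers 24 and 1. Over the 245 members with at least 5 fingers, 50.2% were higher and 5.71% lower. The classes also differ in level, since the median member with 0 to 4 fingers was at 13 FPKM in the control and the median member with 10 to 14 fingers at 2.70 FPKM, and the part of level in these shares was not tested. Nor was the difference between the classes.

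The share of members that rose was alike with and without the KRAB pattern. Of 131 members with the pattern 62 were higher and 6 lower (47.3% and 4.58%), and of 157 without it 77 were higher and 18 lower (49.0% and 11.5%). The median log2 fold change was 0.55 with and 0.37 without the pattern. The difference between these classes was not tested, and the pattern can miss KRAB genes, as it did for Zfp708 below the filter. Of the 6 lower members with the pattern, 5 share more than 10% of their 50-base stretches with other genes, and among the 83 with at most 10% shared 43 were higher and 1 lower. The summed level of the KRAB members was 650 to 802 FPKM in control and 939 to 1205 FPKM in knockout libraries, 1.48 times higher in the mean, and that of the other members 1865 to 1984 FPKM and 2117 to 2236 FPKM, 1.13 times higher.

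**Figure D3:**
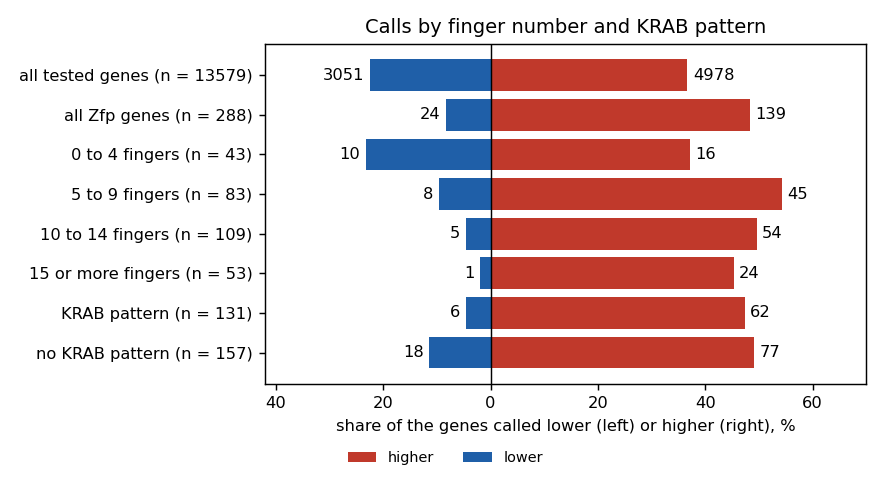
Share of genes called lower (blue, to the left) and higher (red, to the right) in the knockout, in percent, for all tested genes, all Zfp genes, and Zfp genes by number of C2H2 fingers and by KRAB pattern, with the number of genes at each bar end. Members with 0 to 4 fingers (16 higher, 10 lower) lie near all tested genes, and the lower share shrinks to 1 of 53 members with 15 or more fingers.

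Members lay on 20 chromosomes, and 170 of the 288 lay on chromosomes 7, 17, 4, 13 and 8. Chromosome 7 held 75 of them, of which 32 were higher and 8 lower, the latter count being 5 without control replicate 1, control replicate 2, knockout replicate 2 or knockout replicate 3. All 1056 tested genes of that chromosome had 28.2% higher and 28.3% lower with a median log2 fold change of 0.01, against 0.31 for its Zfp genes. Chromosome 17 held 28 members with 10 higher and 0 lower (30.8% and 26.95% of its tested genes), and chromosome 4 held 26 with 12 higher and 1 lower (33.8% and 20.7%). Of chromosomes 7, 17, 4, 13 and 8, chromosome 13 had the median closest to that of all its tested genes (0.18 against 0.26). It held 21 members with 7 higher and 1 lower (40.04% and 17.8% of its tested genes). Chromosome 2, with 18 members, had 6 higher and 4 lower (39.4% and 19.45% of its tested genes) and a median of 0.28 against 0.23. On chromosome 8, 13 of 20 members were higher and 1 lower (36.3% and 21.4%), but the first count fell to 8 without control replicate 1, without control replicate 3 or without knockout replicate 2.

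Chromosomes 6 and 5 had the largest shares of rising members among the 12 chromosomes with at least 5 members. On chromosome 6, 13 of 17 were higher and 0 lower, against 38.9% and 22.2% of its tested genes. On chromosome 5, 10 of 13 were higher and 0 lower (37.7% and 21.1%). Chromosome 15 was the only one of the 12 on which more members fell than rose, with 4 lower and 3 higher of 9 and a median of -0.22 against 0.05 for its tested genes, and without control replicate 1, control replicate 2 or knockout replicate 3 it had 2 of each, with no majority left. In 10 of the 12 chromosomes the median of the Zfp genes was above that of all tested genes, the exceptions being 13 and 15. The counts of 0 or 1 lower member on chromosomes 4, 5, 6 and 13 rose by 1 without knockout replicate 1, on chromosome 4 also without knockout replicate 3 and on chromosome 6 without control replicate 2.

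**Figure D4:**
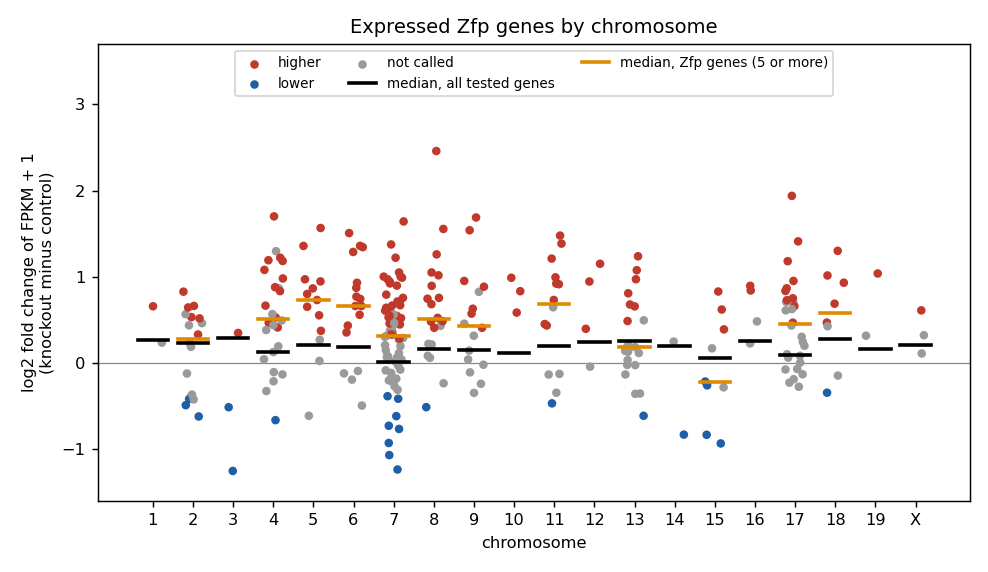
Log2 fold change of FPKM + 1, knockout minus control (vertical), of each of the 288 Zfp genes by chromosome (horizontal), colored by limma call, with the median of all tested genes of the chromosome (black bar) and, where there are at least 5 members, the median of the Zfp genes (orange bar). The orange bar is above the black bar on 10 of 12 chromosomes and below it on 13 and 15.

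Zfp genes that lay within 500 kb of one another formed 14 clusters with at least 5 members each, 7 of them on chromosome 7. In the main test more members were higher than lower in each of the 14. Higher calls also outnumbered lower ones over all tested genes (36.7% and 22.5%). That did not hold throughout: the 5 members from 4915217 to 5053723 on chromosome 7 had 2 higher and 1 lower, but 0 higher and 1 lower with median-ratio scaling or without control replicate 1, and 1 of each without control replicate 2, control replicate 3, knockout replicate 2 or knockout replicate 3. With upper-quartile scaling 3 chromosome 7 clusters had more members lower than higher (2 against 0 in both of those that start at 4915217 and 24081924, and 3 against 2 in that at 127233061). The 128 clustered members (59 higher, 8 lower, median log2 fold change 0.46) and the 160 others (80 higher, 16 lower, median 0.43) had similar medians. These shares were 46.1% higher and 6.25% lower inside clusters, and 50% and 10% outside. Higher members therefore occurred both inside and outside clusters.

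The cluster on chromosome 6 (47819266 to 48623227, GRCm38) held 9 members whose sequences are largely their own, with at most 6.55% of their 50-base stretches shared, and 7 of the 9 were higher. Zfp282, the only one of them with the KRAB pattern, was at 3.19, 3.20 and 2.60 FPKM in control and at 11.4, 10.4 and 9.31 FPKM in knockout libraries (log2 fold change 1.51 ± 0.13 SE, adjusted p = 1.58e-04 by limma). Zfp956 was at 3.0, 3.88 and 3.84 FPKM against 14.6, 9.24 and 8.97 FPKM (log2 fold change 1.36 ± 0.20 SE). In both the groups were far apart. Zfp467, which passed the filter through the knockout only, and Zfp398, Zfp212, Zfp746 and Zfp777 were the other 5 called higher, with log2 fold changes from 0.66 to 1.34, and Zfp746 encodes a repressor known as a target of the ubiquitin ligase parkin. Zfp786 and Zfp775, at the ends of the cluster, did not pass (log2 fold changes -0.12 and -0.19). Among 7 other tested genes in the same interval 4 were higher and 1 lower, with a median log2 fold change of 0.73. Over the alternative settings 6 to 7 of the 9 were higher.

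The cluster on chromosome 4 (145510759 to 147848366, GRCm38) was of another kind. It held 17 members, all with the KRAB pattern and all sharing more than 10% of their 50-base stretches with other genes (median 68.1%), so reads can be split or moved between copies and each value is uncertain. The stretches below, of 84 bases from the first cysteine codon of a finger (longest GENCODE M21 coding sequences, GRCm38, 5′ to 3′), show how alike the copies are. Capitals mark bases that differ from the finger of Zfp988, the fingers were picked for their likeness to it, and Zfp568 is given as a member from elsewhere.
Zfp988: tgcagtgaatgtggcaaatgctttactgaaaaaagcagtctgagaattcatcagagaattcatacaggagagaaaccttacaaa
Zfp986: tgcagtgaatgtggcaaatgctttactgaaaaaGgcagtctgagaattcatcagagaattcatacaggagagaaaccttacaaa
Zfp984: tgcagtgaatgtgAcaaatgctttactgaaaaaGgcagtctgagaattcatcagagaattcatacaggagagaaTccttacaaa
Zfp978: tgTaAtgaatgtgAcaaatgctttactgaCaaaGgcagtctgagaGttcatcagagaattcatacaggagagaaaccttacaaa
Zfp979: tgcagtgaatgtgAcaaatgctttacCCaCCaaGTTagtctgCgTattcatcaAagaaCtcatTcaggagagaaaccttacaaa
Zfp568: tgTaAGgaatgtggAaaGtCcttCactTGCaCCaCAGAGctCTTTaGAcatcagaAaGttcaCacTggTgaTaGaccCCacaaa
Over the other 16 copies the best finger differed from that of Zfp988 at 0 to 13 of the 84 bases (median 5.5), and Zfp987, Zfp989 and Zfp534 hold it without a difference. Over 264 of the 271 members elsewhere, those with a full stretch to compare, the best finger differed at 8 to 64 bases (median 31). The finger of Zfp988 was itself chosen as the one nearest to the other copies, so part of this gap comes from that choice.

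In this cluster 7 copies were higher, 1 was lower and 9 did not pass. The shares were 41.2% higher and 5.88% lower, against 36.7% and 22.5% of all tested genes. Among 18 tested genes with other names in the same interval 9 were higher and 0 lower. The median log2 fold change of these 18 was 0.65, against 0.57 for the copies. They include Rex2, which was not called and in which 58.55% of the stretches of Zfp980 also occur. Reads can thus be split between the copies and some of these genes, so they are not an independent comparison. Zfp984 was at 8.78, 9.82 and 11.1 FPKM in control and at 17.9, 22.5 and 26.3 FPKM in knockout libraries (log2 fold change 1.08 ± 0.16 SE, adjusted p = 1.25e-03 by limma). Zfp988 was at 5.67, 6.69 and 7.30 FPKM against 12.3, 16.6 and 20.7 FPKM (log2 fold change 1.19 ± 0.19 SE), and Zfp986, Zfp534, Zfp987, Zfp989 and Zfp600 were the other 5 that rose. Zfp978, by far the most abundant copy, went down, from 110, 106 and 116 FPKM to 75.3, 61.3 and 72.3 FPKM (log2 fold change -0.66 ± 0.10 SE, adjusted p = 1.10e-03 by limma). All 8 had groups that did not overlap. Zfp985 varied most within a group, with 3.36, 21.6 and 44.7 FPKM in the control and 28.6, 34.9 and 61.9 FPKM in knockout libraries. It did not pass. Libraries moved many copies together: knockout replicate 3 was the highest of the knockout libraries for 15 of the 17 copies, against 122 of the 271 members elsewhere, and control replicate 1 was the lowest of the control libraries for 13 of the 17. Over the alternative settings 5 to 10 copies were higher and 1 was lower.

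**Figure D5:**
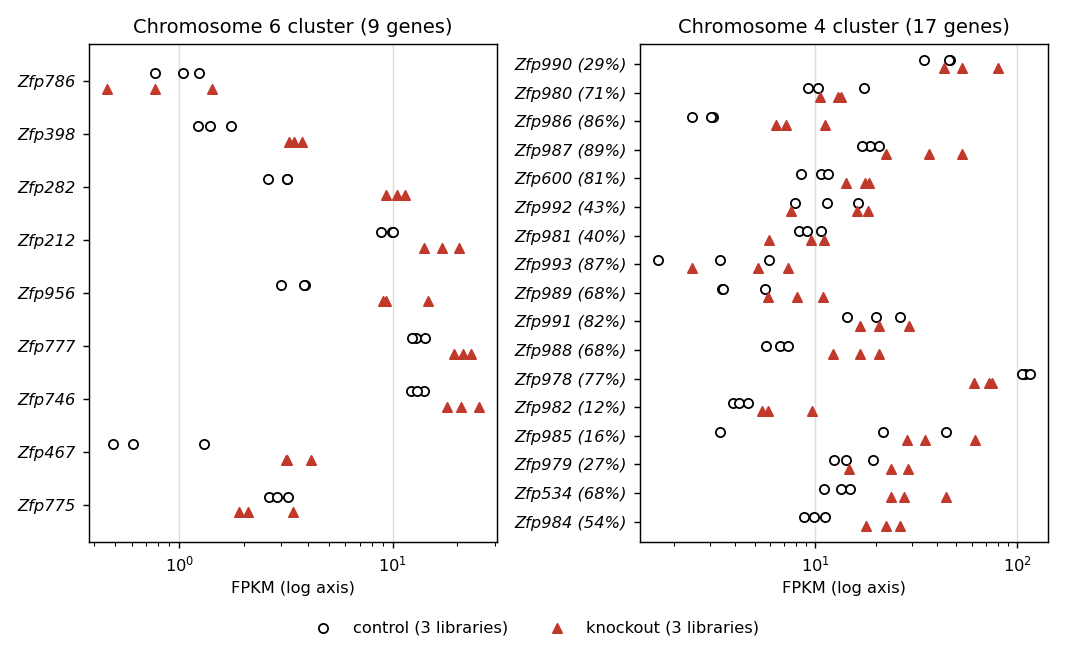
FPKM (log axis) of the 9 Zfp genes of the chromosome 6 cluster (left) and the 17 of the chromosome 4 cluster (right) in chromosome order, with 3 control libraries (open circles) and 3 knockout libraries (red triangles) per gene; percentages at right give the share of 50-base stretches also found in other genes. On chromosome 6 the groups are apart in 7 of 9 genes, and on chromosome 4 Zfp978 is lower in every knockout library while 8 copies are higher in every one.

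On chromosome 7 the 7 clusters held 59 members. In chromosome order 40%, 33.3%, 66.7%, 45.5%, 46.2%, 62.5% and 20% of their members were higher, against 36.7% of all tested genes. The share lower was at most 20% in each, against 22.5% of all tested genes. Other tested genes in the same intervals (3, 3, 5, 21, 1, 7 and 25 genes) did not rise throughout. In the same order their median log2 fold changes were 0.11, -0.57, 0.425, 0.18, -1.69, -0.30 and 0.02. The cluster from 29768552 to 30169750 includes Zfp568 and Zfp27, the latter at 1.93, 2.75 and 1.91 FPKM in control and 8.54, 6.43 and 6.85 FPKM in knockout libraries (log2 fold change 1.37 ± 0.17 SE, adjusted p = 5.41e-04 by limma). In it 6 of 13 members were higher, and the only one lower, Zfp566, lost its call whichever single library was left out. The cluster from 42473386 to 43618285 had 5 of 8 members higher, among them Zfp715 (1.69, 1.74 and 1.93 FPKM against 4.0, 4.36 and 4.48 FPKM) and Zfp719 (log2 fold changes 0.92 and 0.94), and Zfp141 lower. The cluster from 12415153 to 12985714 had 4 of 6 higher, among them Zfp110 and Zfp329 (log2 fold changes 0.90 and 1.00). The cluster from 127233061 to 127885996 moved least, with 2 of 10 members higher (Zfp689 and Zfp768), 0 lower and a median log2 fold change of 0.17, equal to that of all tested genes. In the remaining 3, Zfp787, Zfp78, Zfp61, Zfp111, Zfp628 and Zfp865 were among the higher members and Zfp575, Zfp428 and Zfp580 were lower. Zfp78 and Zfp329 passed the filter through the knockout only. In the cluster from 24081924 to 25227507 the 5 higher members were 3 without control replicate 2 or knockout replicate 2 and 2 without control replicate 3. The calls of Zfp628 and Zfp865 were lost with median-ratio scaling (0.34 and 0.11), and that of Zfp428, whose groups overlapped, was lost without control replicate 1, control replicate 2, knockout replicate 2 or knockout replicate 3.

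In the clusters on other chromosomes the shares of higher members are read beside 36.7% of all tested genes. They were 46.2% and 22.2% on chromosome 17, 45.5% on chromosome 13, 80% on chromosome 8 and 40% on chromosome 9. The larger cluster on chromosome 17 (21008903 to 23599487) had 6 of 13 members higher, led by Zfp948 and Zfp160. Zfp160 was at 1.29, 1.13 and 1.00 FPKM in control and at 4.36, 4.41 and 5.31 FPKM in knockout libraries (log2 fold change 1.41 ± 0.14 SE, adjusted p = 2.35e-04 by limma), with no overlap between the groups. With the filter set at 1 FPKM in all libraries of both groups 1 member of that cluster was called higher. In the other cluster of chromosome 17 (32765496 to 33631779) Zfp952 and Zfp563 were the 2 higher members of 9, a count that was 4 without knockout replicate 1. The chromosome 13 cluster (67038596 to 67827002) had 5 of 11 higher, with Zfp429 at 1.78, 1.92 and 1.5 FPKM against 4.42, 6.00 and 6.01 FPKM (log2 fold change 1.24 ± 0.16 SE), and Zfp493 lower, a call lost without control replicate 1. The count of 5 fell to 3 without control replicate 1, control replicate 3, knockout replicate 2 or knockout replicate 3. Zfp456 of this cluster, at 0.35, 0.27 and 0.26 FPKM against 1.00, 1.54 and 2.20 FPKM, passed the filter through the knockout only and is covered by antisense exons of Gm17039 over 52.5% of its exons. The chromosome 8 cluster (69209038 to 69791178) had 4 of 5 higher, led by Zfp868 and Zfp963 (log2 fold changes 0.89 and 0.68), the latter a member through the knockout only. This count fell to 2 without control replicate 2 and to 1 without control replicate 1, control replicate 3, knockout replicate 2 or knockout replicate 3. The chromosome 9 cluster (20345136 to 20605409) had 2 of 5, Zfp426 and Zfp560, and 1 without control replicate 3 or knockout replicate 2, where Zfp560 lost its call.

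Promoters were looked at because so many members moved one way. RefSeq (GRCm38.p6) windows of 300 bases, 250 before to 50 after a start, matched 234 of the 288 members with 290 windows. Shown are those of 2 members that rose, Zfp282 and Zfp655, and of Zfp296, which fell, with capitals on matches to 6 motifs searched on both strands. The GC box was searched as GGGCGG. The CCAAT box was searched as ATTGG. AAGATGGC is the core bound by YY1, and GGCGGGAA is an E2F-type site. The E-box was searched as CACGTG. The TATA box was searched as TATAAA.
Zfp282, chr6:47877305-47877604, plus strand: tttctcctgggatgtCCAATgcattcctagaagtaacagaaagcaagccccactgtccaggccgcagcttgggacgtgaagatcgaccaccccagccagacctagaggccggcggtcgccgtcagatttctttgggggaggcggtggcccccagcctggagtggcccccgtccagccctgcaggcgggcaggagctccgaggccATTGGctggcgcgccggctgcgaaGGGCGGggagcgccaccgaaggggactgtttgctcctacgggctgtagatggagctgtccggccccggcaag
Zfp655, chr5:145231492-145231791, plus strand: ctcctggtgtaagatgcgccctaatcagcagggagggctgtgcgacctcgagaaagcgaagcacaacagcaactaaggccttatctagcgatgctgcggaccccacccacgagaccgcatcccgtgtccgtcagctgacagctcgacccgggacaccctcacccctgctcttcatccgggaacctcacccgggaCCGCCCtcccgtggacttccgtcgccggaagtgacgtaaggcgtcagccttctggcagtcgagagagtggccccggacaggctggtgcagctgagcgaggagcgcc
Zfp296, chr7:19577037-19577336, plus strand: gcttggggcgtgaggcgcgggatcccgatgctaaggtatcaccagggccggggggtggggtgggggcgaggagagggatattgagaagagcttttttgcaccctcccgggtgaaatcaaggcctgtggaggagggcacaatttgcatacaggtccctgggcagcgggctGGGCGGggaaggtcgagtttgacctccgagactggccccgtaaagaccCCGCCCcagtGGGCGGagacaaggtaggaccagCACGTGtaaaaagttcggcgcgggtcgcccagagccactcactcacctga
All 3 are rich in CG dinucleotides (21, 25 and 19), and so were the members' windows, with a median of 15. Over all 32851 windows, which were not limited to expressed genes, the median was 7. GGGCGG can overlap GGCGGGAA where the letters run together.

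Promoter motifs were counted by KRAB class and by call. The CCAAT box was found in 61.5% of 135 windows of KRAB members, in 38.1% of 155 windows of other members and in 37.4% of all windows. The GC box was found in 36.3%, 54.2% and 35.7% of these. Higher, lower and uncalled members held the CCAAT box in 51.0%, 47.1% and 46.9% of their windows. AAGATGGC was in 8.39% of the windows of higher members, 11.8% of the 17 windows of lower members and 2.31% of those of uncalled members, against 2.75% of all windows. TATAAA was in 6.55% of the members' windows and 13.6% of all. These shares are descriptions of letters, and windows of 1 gene can overlap. The set of all windows was not limited to expressed genes, whereas the members passed a level filter, so these sets also differ in expression.

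Genes of the corepressor machinery that KRAB proteins use were described as a list of 22. Of these 4 were higher and 8 lower (18.2% and 36.4%, against 36.7% and 22.5% of all tested genes), with a median log2 fold change of -0.03. Trim28, named here after its values were seen because KRAB domains bind it, was at 1281, 1358 and 1177 FPKM in control and at 834, 651 and 622 FPKM in knockout libraries (log2 fold change -0.87). Cbx1, an HP1 protein, was lower in every knockout library (log2 fold change -0.93), as was Uhrf1 (log2 fold change -1.12), which guides maintenance DNA methylation. Chd3, a NuRD remodeller, was at 2.90, 2.77 and 3.51 FPKM against 24.8, 24.8 and 20.1 FPKM (log2 fold change 2.58 ± 0.13 SE, adjusted p = 3.70e-05 by limma). The number of higher corepressor genes was 1 with median-ratio or upper-quartile scaling, 6 with equal FPKM sums, where 6 were also lower, 8 without knockout replicate 1 and 2 without any other single library except control replicate 2.

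Other zinc finger families give a scale for the Zfp genes. Of all tested genes 36.7% were higher and 22.5% lower. Of 38 tested Zbtb genes 15 were higher and 6 lower (39.5% and 15.8%), with a median log2 fold change of 0.20, and Zbtb2 led them (log2 fold change 1.66). Of 19 Zscan and Zkscan genes 8 were higher and 4 lower (42.1% and 21.1%, median 0.32), and of 13 Klf genes 6 were higher and 6 lower (46.2% of each, median -0.10). A last list held 26 tested genes with other KRAB-type names or a letter after the Zfp number, and it is not a KRAB set. It takes in many genes of other types, such as Zfp385a, Zfp36l3 and Zfp804a among the higher ones and Zfp36l1 and Zfp280b among those not called. Of its 26 genes 11 were higher and 0 lower (42.3% and 0%, median 0.34). The Zfp median of 0.44 was above each of these, and no test of the difference was made.

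A few members could not be read because single libraries stood far apart. Zfp661 was at 1.58, 1.49 and 13.6 FPKM in control and at 3.52, 2.0 and 1.87 FPKM in knockout libraries. Zfp950 was at 12.7, 0.64 and 2.13 FPKM against 3.42, 2.93 and 6.8 FPKM, and Zfp202 at 3.50, 12.4 and 4.80 FPKM against 3.61, 5.41 and 4.71 FPKM. In each of these 3 genes, named after their values were seen, 1 control library was higher than all knockout libraries, and none passed. At the edge of the filter, the third-highest value was 1.00 FPKM in Zfp456 and 1.03 FPKM in Zfp968, just inside, and 0.99 FPKM in Zfp11 and 0.97 FPKM in Zfp174 and Zfp316, just outside. The 71 genes below the filter had highest values of at most 2.03 FPKM (median 0.75), and 4 were listed at 0 in all libraries. All knockout values exceeded all control values in 25 of the 71 and the reverse held in 4, while among tested genes 41.3% and 25.5% were separated in these ways.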

How the data were processed

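RNA sequencing libraries of 6 mouse embryonic stem cell samples were grouped by genotype as given in their titles, 3 control and 3 knockout. The values the authors deposited are taken as FPKM from their form, since no header names the unit. Tools listed in the submitters' processing notes, with no role stated, are HISAT2 2.1.0, RSEM, FastQC and DESeq 1.26.0, and the build listed is GRCm38.p6. Annotation release and strand use: not given in the sources used here. Hence a gene and its antisense partner cannot be told apart. FPKM depends on the total of each library, and sums were 697933 to 800146. Of 52872 rows per file, 2 without a gene identifier were left out. Depth was estimated from the steps of low values (85.7% to 88.8% within 0.15 of a whole step), and no count model was used.

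The 13579 genes that reached 1 FPKM in 3 or more libraries were tested on the log2(FPKM + 1) scale by limma 3.58.1 (R 4.3.3), two-sided, with genotype as the only term, a mean trend and moderated variances. Adjustment was by Benjamini-Hochberg over all 13579, and adjusted p below 0.05 was called. Differences on the log2 scale understate changes of low genes. The test was tried on simulated data. Symbols, coordinates and coding sequences came from GENCODE M21 (GRCm38). Fingers were counted as C, 2 to 4 residues, C, 12 residues, H, 3 to 5 residues, H, and the KRAB pattern as F, S or T, any residue, E, D or K, E, W, 2 residues and L. Sharing is the share of 50-base stretches of a gene's transcripts that occur in another gene.

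The members and lists were chosen with earlier results of these data known. Named members are those called in the role lists (full values for up to 5 a list), the 8 largest and 8 smallest changes among called members with separate groups, the 3 highest and 3 lowest means, up to 2 called members of smallest p per cluster and direction, those beside the filter, and Rbbp4. From the corepressor list and the other families the up to 3 called genes of smallest p could be named. Same-numbered libraries did not deviate together (correlations -0.001, -0.009 and 0.049), so the numbers were not taken to pair them. With 3 libraries a group this check cannot exclude that a number stands for shared handling.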

Additional observations from a re-analysis of the deposited data

How the results depend on the processing

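Scaling moved the counts most. With upper-quartile scaling 40 members were lower, 48 members without the KRAB pattern were higher and 30 lower, 10 with it were lower, and 18 members on chromosome 7 and 8 on chromosome 8 were higher. The median log2 fold change of the members was 0.30 with median-ratio scaling, 0.23 with upper-quartile scaling, 0.56 with equal FPKM sums, a scaling chosen after seeing the data, and 0.54 with a pseudocount of 0.1. On chromosome 17, 16 members were higher with equal FPKM sums and 6 with the filter in all libraries of both groups, and on chromosome 8, 8 were higher without a filter. Leaving out 1 library gave 107 to 151 higher and 17 to 32 lower members, and 8 to 12 higher on chromosome 8. No called log2 fold change of a named member turned sign. That of Zfp786, which was not called, was -0.12 and became 0.05 without knockout replicate 3. Which direction held more members turned or tied under some settings in single clusters, on chromosomes 2, 14 and 15 and in some other gene lists. The cause of these shifts was not tested.

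With the replicate number as a block 135 members were higher and 21 lower. Since the numbers were not taken to pair the libraries, this block result is given only here. Under it the calls of Zfp865 and Zfp446 were lost. Of 60 named members, 47 had the same call in every setting that could be run. At the estimated depth 1 fragment on 2 kb is 0.02 to 0.0226 FPKM, and values below that cannot be told from 0.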
